A study of Mus musculus with 2 samples.

Results

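CTCF is the zinc finger protein that marks most borders of chromatin loops in vertebrates, and cohesin is the ring-shaped complex that extrudes those loops and holds sister chromatids together. The 10 genes described here are Ctcf, its paralog Ctcfl, and cohesin subunits and loader, taken by name from the 21938 protein-coding genes of GENCODE M21 on chromosomes 1 to 19, X and Y. They were divided by textbook knowledge into 6 somatic members (Ctcf, Rad21, Smc1a, Smc3, Stag1 and Nipbl) and 4 germline members (Ctcfl, Rad21l, Smc1b and Stag3).

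Open chromatin was measured by DNase-seq, in which DNase I cuts DNA where nucleosomes and other proteins leave it exposed. The tissue was left cerebral cortex of 2 male mice aged 2 months, of the strain B6CASTF1/J, a first-generation cross between C57BL/6J and CAST/EiJ. The 2 libraries form 1 group of biological replicates 1 and 2, without a second tissue, genotype or treatment, so genes and regions were compared within the tissue and no p-value was computed. A bulk tissue library sums over cell types, so a taller peak in a few cells and a lower peak in many cells cannot be told apart.

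A cohesin ring is built from an SMC1 and an SMC3 protein, which are ATPases, a kleisin that closes the ring, and a STAG protein that binds the kleisin and, at loop borders, CTCF. NIPBL loads the ring and stimulates its ATPase. In mitotic and postmitotic cells, neurons included, the ring holds SMC1A, RAD21 and STAG1 or STAG2. Meiotic cells add SMC1B, the kleisins RAD21L and REC8, and STAG3, and male germ cells express CTCFL, also called BORIS, which shares the CTCF zinc finger domain.

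A gene was called accessible where both replicates had a peak within 500 bp of a transcription start site (TSS) annotated for it. Its promoter height was the height of the tallest such peak, a linear signal as the authors deposited it. All 6 somatic members were accessible, and 2 of the 4 germline members, Smc1b and Stag3, were accessible as well. Among all coding genes 56.2% were accessible. Replicate 1 alone gave the same 6 and 2 members, with 61.6% of coding genes, and replicate 2 alone did so too, with 57.1%. The longer peak lists gave 6 and 2 members as well, with 61% of coding genes. Most coding genes were accessible in each case, so an open promoter does not set a single member apart.

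The 3 promoters that lie head-to-head with a coding neighbour, and the upstream region of Smc3 with its wide footprints, are shown first. Smc1a and Smc1b, the somatic and the germline SMC1 gene, have the same arrangement: each starts head-to-head with a gene of the RIB43A family, Ribc1 beside Smc1a and Ribc2 beside Smc1b. Their start sites lie 133 bp apart at Smc1a and 114 bp apart at Smc1b. Stag3 starts head-to-head with Gpc2, a glypican gene, at a distance of 235 bp. The stretches between the start sites, and the tallest promoter region of Smc3, are given from the GRCm38.p6 assembly (mm10) of RefSeq, 5′ to 3′ along the strand of the member. They are those of the C57BL/6J reference, and the CAST/EiJ allele was not examined. Capitals mark bases covered by footprints in both replicates, a footprint being a short stretch within open chromatin that was protected from cutting.
Smc1a with Ribc1, chrX:152016296-152016427, plus strand: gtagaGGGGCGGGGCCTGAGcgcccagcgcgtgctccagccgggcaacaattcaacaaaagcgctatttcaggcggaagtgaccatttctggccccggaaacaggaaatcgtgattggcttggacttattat
Smc3 upstream region, chr19:53599901-53600180, plus strand: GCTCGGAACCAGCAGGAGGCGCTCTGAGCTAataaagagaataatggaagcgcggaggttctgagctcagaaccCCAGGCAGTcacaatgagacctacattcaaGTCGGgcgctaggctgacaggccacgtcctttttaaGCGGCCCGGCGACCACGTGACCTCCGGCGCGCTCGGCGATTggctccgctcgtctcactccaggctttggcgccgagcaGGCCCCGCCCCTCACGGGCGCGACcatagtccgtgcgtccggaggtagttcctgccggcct
Smc1b with Ribc2, chr15:85131965-85132077, minus strand: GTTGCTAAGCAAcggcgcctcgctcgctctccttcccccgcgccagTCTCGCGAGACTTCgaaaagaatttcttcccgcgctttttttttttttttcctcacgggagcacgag
Stag3 with Gpc2, chr5:138280006-138280239, plus strand: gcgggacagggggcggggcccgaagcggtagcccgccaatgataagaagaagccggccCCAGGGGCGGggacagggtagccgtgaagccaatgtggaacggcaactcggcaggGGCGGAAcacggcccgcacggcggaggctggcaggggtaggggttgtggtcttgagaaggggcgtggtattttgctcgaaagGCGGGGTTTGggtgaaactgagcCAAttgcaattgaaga

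Shared footprints covered 11.4% of the Smc1a stretch, 23.0% of the Smc1b stretch and 12.8% of the Stag3 stretch. They covered 39.3% of the Smc3 region. That region is a whole peak region of 280 bp and not a stretch between start sites, so its share is not comparable with the others. In Smc3 the capitals hold a CTCF core, an E-box and, on the opposite strand, an SP/KLF match. In the Smc1a stretch the 1 shared footprint covers GGGCGG, the letters recognised by SP and KLF factors, and GGGCGG also lies under a shared footprint of Stag3. The 2 shared footprints of the Smc1b stretch cover other letters. One holds GTTGC and, 3 bases on, GCAAC without its last base, the inverted repeat of the X-box type that RFX factors recognise. The other holds TCTCGCGA, which is part of an inverted repeat found at many housekeeping promoters. Both patterns were chosen after the sequence was seen. GTTGC and GCAAC at 3 to 4 bases occurred in 0.989% of all coding promoters and TCTCGCGA on either strand in 2.46%. Of the coding genes with the X-box pattern 77.4% were accessible, and of those with TCTCGCGA 90.7%.

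Ctcf itself had a promoter height of 3.89 in replicate 1 and 2.05 in replicate 2. These values lie at percentiles 52.1 and 48.6 of all accessible coding genes, whose medians were 3.73 and 2.11. Its promoter was therefore of ordinary height in both libraries. The gene lies on the plus strand at chr8:105636568-105682922, and 4 of its 5 annotated start sites had a peak in both replicates.

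Rad21, the somatic kleisin gene at chr15:51962240-51991747, had heights of 6.19 in replicate 1 and 4.23 in replicate 2, at percentiles 79.4 and 82.6. Smc3, which encodes the SMC subunit common to somatic and meiotic rings, lies at chr19:53600398-53645833. Its heights of 9.09 and 4.91 stood at percentiles 96.1 and 88.3. Stag1 at chr9:100597798-100959375 was the tallest of the members in both libraries, with 9.99 and 5.23 at percentiles 98.0 and 90.3. These 3 genes for core subunits were above the median of accessible coding genes in both replicates.

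Smc1a at chrX:152016428-152062694 had heights of 3.35 and 2.71, at percentiles 44.6 and 62.2 of all accessible coding genes. The X chromosome is hemizygous in males, and the 399 accessible X-linked coding genes had median heights of 1.87 and 1.24. Among those genes Smc1a stood at percentiles 86.2 and 88.0. The Smc1a promoter was thus close to the middle of all accessible promoters and in the upper part of the X-linked ones. Nipbl at chr15:8290617-8444463, the loader gene, had 3.75 and 2.01, at percentiles 50.4 and 47.5.

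Among the germline members, Smc1b at chr15:85064689-85131964 had heights of 2.17 in replicate 1 and 1.09 in replicate 2, at percentiles 25.7 and 22.3. Stag3 at chr5:138280240-138312393 had 1.99 and 1.10, at percentiles 23.0 and 22.9. Both lie in the lowest part of the accessible promoters, close to each other in both libraries. Ctcfl at chr2:173093609-173119525 and Rad21l at chr2:151645404-151668533 lacked a promoter peak in both animals, also when the longer of the deposited peak lists were read.

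The somatic members had median heights of 5.04 in replicate 1 and 3.47 in replicate 2, and the 2 accessible germline members 2.08 and 1.09. The ratio of these medians was 2.42 in replicate 1 and 3.17 in replicate 2. The lowest somatic height was 3.35 in replicate 1 and 2.01 in replicate 2, and the highest germline height was 2.17 and 1.10. The 2 classes did not overlap within either library, although replicate 2 heights of Ctcf and Nipbl lay under the replicate 1 height of Smc1b. Only 2 germline members enter this comparison. Their highest heights stood at percentiles 25.7 and 22.9 of accessible coding genes, so most such genes lay above them as well. Among 14 further cohesin subunits and regulators, with medians of 5.32 and 2.75 where accessible, Hdac8 at 0.704 and 0.567 lay under both germline members. Pttg1 did so in replicate 1 alone, at 1.35, and Pds5a in replicate 2 alone, at 0.932. In matched pairs, Smc1a was 1.54 and 2.49 times as high as Smc1b, and Stag1 was 5.01 and 4.75 times as high as Stag3. Stag2, the other somatic STAG gene, is not among the 10 and had heights of 2.45 and 1.41, which is 1.23 and 1.28 times Stag3. The distance from Stag3 thus depended on which somatic STAG gene it was set against. Heights differ between chromosomes, with medians of 1.87 and 1.24 for X-linked accessible coding genes. Stag2 and Hdac8 were not set beside genes of their own chromosome, as Smc1a was above. Rad21 over Rad21l and Ctcf over Ctcfl give no ratio, since the germline paralog had no peak.

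**Figure D1:**
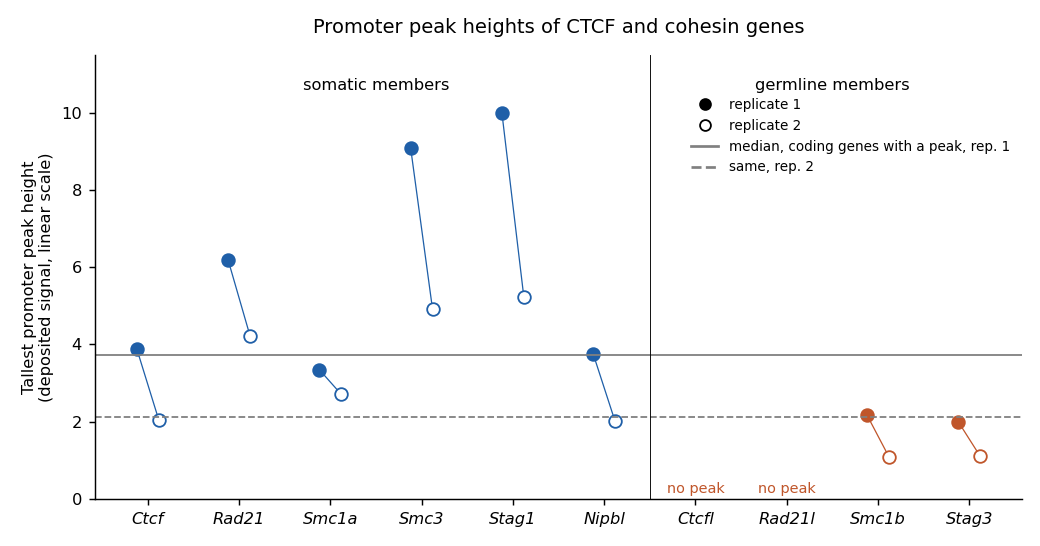
Height of the tallest promoter peak (deposited signal, linear axis) of the 6 somatic members at the left and the 4 germline members at the right, filled for replicate 1 and open for replicate 2. Grey lines mark the medians of accessible coding genes, 3.73 (solid, replicate 1) and 2.11 (dashed, replicate 2). Stag1 and Smc3 stand highest, and Ctcfl and Rad21l have no peak. Smc1b and Stag3 lie under the median in both libraries, Smc1a in replicate 1 alone, and Ctcf and Nipbl in replicate 2 alone.

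Stag1, Smc3 and Rad21 kept the first 3 places in both libraries. Below them the order changed: Smc1a was the sixth in replicate 1 and the fourth in replicate 2, and Smc1b and Stag3 changed places. With 1 library per animal, the differences among Ctcf, Smc1a and Nipbl, and between Smc1b and Stag3, are therefore not separated from the spread between the replicates. The log2 ratio of replicate 2 over replicate 1 lay between -0.995 at Smc1b and -0.31 at Smc1a, with a median of -0.90. Over all accessible coding genes the median was -0.77, and 90% of them lay between -1.37 and -0.01. All 8 accessible members fell inside that range, 6 of them below the median and Rad21 and Smc1a above it.

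Where the peaks sit differed between members. The tallest region of Stag1 spanned its main start site with its centre 27 bp upstream, and that of Rad21 was centred 94 bp upstream. The tallest region of Smc3 lay wholly upstream, with its centre at 357 bp and its near edge 218 bp from the start site. The Smc1b region was centred 97 bp upstream and covered the start sites of Smc1b and Ribc2. The Stag3 region was centred 355 bp upstream of the start of its longest coding transcript and covered both the first start site of Stag3 and that of Gpc2, so the height assigned to Stag3 cannot be told apart from that of Gpc2. The same holds for Smc1a with Ribc1 and Smc1b with Ribc2.

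**Figure D2:**
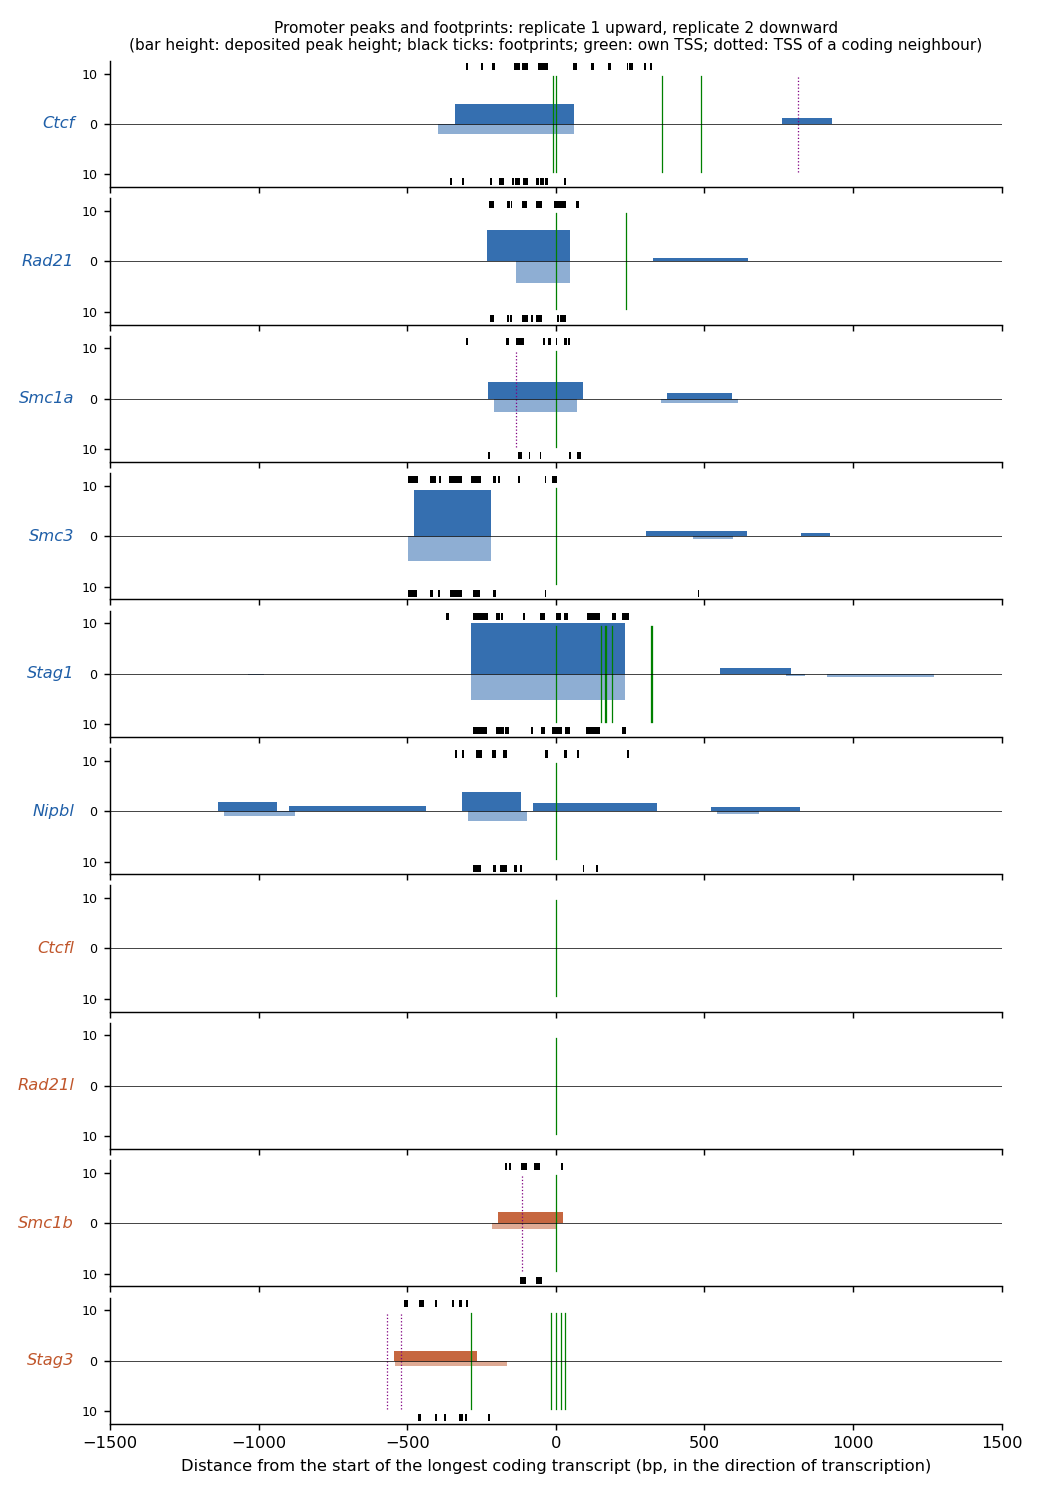
Peaks of the shorter lists (bars, height as deposited) and promoter-window footprints (black ticks) within 1500 bp of the start of the longest coding transcript of each member, with replicate 1 upward and replicate 2 downward. Green lines are the member's own start sites and dotted lines those of coding neighbours. The Smc3 bar lies wholly upstream of its start site, the Stag1 bar spans it, the bars of Smc1b and Stag3 span the stretch between the start sites of 2 genes, and the Ctcfl and Rad21l panels are empty.

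The 10 genes have 42 distinct start sites. A peak of both replicates was found at 16 of 30 in the somatic members and 6 of 12 in the germline members. In each gene with an accessible promoter, the accessible sites lay together in a single cluster. Outside Stag1 this cluster was at the 5′ end, and the sites farther inside had no peak, which left 1 of 5 accessible at Smc1a and 1 of 3 at Smc3. At Stag1 the 7 accessible of 14 start sites lay within the annotated gene, and the farthest upstream site, which begins a coding transcript 45.6 kb before them, had no peak. Among the accessible members, 6 had 2 or more promoter peaks in replicate 1 and 3 in replicate 2, all of them somatic. The shares of accessible coding genes were 46.1% and 38.9%, so in replicate 2 the members were close to this share. The second peak of Ctcf was found in replicate 1 only. It covered the start sites of the lincRNA gene Gm5914 and of the coding gene Agrp, both on the opposite strand. At Nipbl the lower peaks of replicate 1 lay on both sides of the main one.

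Head-to-head coding genes as a class were accessible in 92.3% of 2410 cases, against 51.7% of the other coding genes. Their median heights were 5.09 and 3.12. Smc1a stood at percentiles 24.7 and 41.5 of this class. Smc1b stood at 9.13 and 6.90, and Stag3 at 7.31 and 7.42. The paired germline promoters were thus accessible, as most such pairs are, and were among the lowest of them.

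The promoters also differ in CpG content, which was measured as CpG observed over expected within 500 bp of a start site, taking the highest value of a gene. The somatic members lay between 0.779 at Smc1a and 1.03 at Stag1, in bins where 91.2% to 94.3% of coding genes were accessible. Stag3 at 0.809 and Smc1b at 0.695 fell in bins with 90.1% and 82.5% accessible. Ctcfl at 0.412 and Rad21l at 0.243 fell in bins with 27.4% and 7.75% accessible. The presence or absence of a peak at each of the 10 genes was thus what most genes of like CpG content show.

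**Figure D3:**
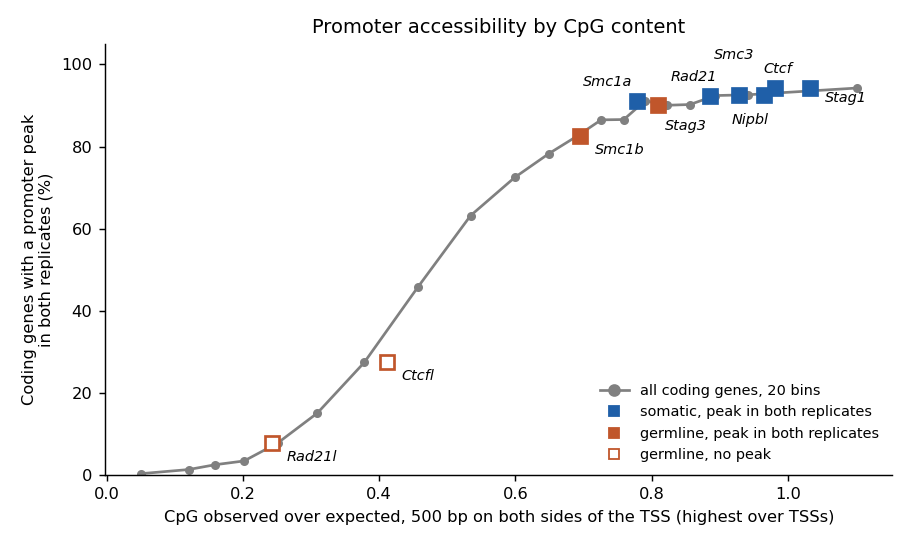
Share of coding genes with a promoter peak in both replicates (percent) against CpG observed over expected, for all coding genes in 20 bins (grey) and for the members, each placed at its own CpG value and the share of its bin. Blue squares are somatic and brown squares germline members, filled where a peak was present. Ctcfl and Rad21l, the open squares, lie on the low part of the curve at 27.4% and 7.75%.

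Heights within a CpG bin were not uniform. Against accessible genes of the same bin, Stag1 stood at percentiles 96.3 and 88.2, Smc3 at 92.2 and 83.9, and Rad21 at 70.4 and 76.8. Ctcf stood at 36.1 and 41.5, Nipbl at 35.4 and 38.2, and Smc1a at 37.05 and 58.1. Smc1b stood at 24.9 and 21.5 and Stag3 at 15.6 and 16.1. Stag1, Smc3 and Rad21 therefore remained high, and the germline pair low, when set beside promoters of like CpG content.

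At Ctcfl and Rad21l the deposited tracks of false discovery rate listed no base under 0.05 within the promoter windows, and no footprint was listed there. Among the 8230 coding genes without a promoter peak in either replicate, 3.66% had such a base in both, so this emptiness is usual for closed promoters. The peak nearest to the Ctcfl start site was 11.95 kb downstream in an intron, with heights of 1.24 and 0.824. In the shorter lists the nearest peak to Rad21l was 7.89 kb upstream, in replicate 2, with a height of 0.378. The longer list of replicate 1 had an overlapping peak with a height of 0.324. In the longer list of replicate 1 a peak of 29 bp with a height of 0.255 lay 1.89 kb upstream of Rad21l.

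Footprints were counted over the promoter windows of each gene. In replicates 1 and 2, Ctcf had 13 and 11, Rad21 7 and 8, Smc1a 8 and 6, Smc3 11 and 8, Stag1 11 and 10, and Nipbl 9 and 7. Smc1b had 5 and 2 and Stag3 had 6 and 6, while Ctcfl and Rad21l had none. The median of accessible coding genes was 8 in replicate 1 and 6 in replicate 2. Footprints in both replicates were present at 8 of the 10 members, against 58.5% of all coding genes. Windows of genes with several start sites are longer and can hold more footprints.

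Many footprints were seen in 1 animal only. At the members, 35 of 70 footprints of replicate 1 (50%) overlapped one of replicate 2, and 38 of 58 of replicate 2 (65.5%) overlapped one of replicate 1. The shares at all accessible coding promoters were 45.4% and 66.1%. Stag1 had 8 of 11 replicate 1 footprints in replicate 2 and Rad21 6 of 7, whereas Ctcf had 3 of 13. In replicate 2, 5 of 11 Ctcf footprints overlapped one of replicate 1. Most Ctcf footprints of each replicate were thus seen in that animal only.

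In the promoter windows of the members, 7 of 70 footprints in replicate 1 and 4 of 58 in replicate 2 were 30 bp or wider, at Ctcf, Rad21, Smc3 and Stag1. At all accessible coding promoters the shares were 4.60% and 4.36%. At Smc3, a footprint of 42 and 41 bp centred 337 bp upstream covered the E-box CACGTG, and one of 33 and 32 bp near 481 bp upstream covered the CTCF core, both printed above. At Stag1, footprints of 50 and 51 bp lay near 253 bp upstream, and footprints of 44 and 48 bp over a CTCF core lay 126 bp downstream of the main start site. At Rad21 a footprint of 40 bp at the start site in replicate 1 covered SP/KLF, ETS and YY1 letters, and was divided into shorter ones in replicate 2. In the promoter windows of the germline members no footprint was wider than 21 bp, although wider ones lay at distal sites of Ctcfl and Smc1b, described further on.

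The CTCF core used here is CCA, any 2 bases, AG, any 2 bases, GGC, read on both strands. It occurred in the promoter windows of 4 of 6 somatic members, namely Ctcf, Rad21, Smc3 and Stag1, and in 0 of 4 germline members. Over all coding promoters the share was 16%. At Smc3 and Stag1 a footprint covered all 12 bases of a core in both animals. At Rad21 a footprint reached 1 base at the edge of the core in each animal, and at Ctcf itself the promoter core was touched by none.

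Other letters were searched on both strands, and a match is not a bound site. GGGCGG (SP/KLF) was in 6 of 6 somatic and 2 of 4 germline windows, against 68.1% of coding promoters. ATGGCGGC (YY1) was in 3 somatic and 0 germline windows, against 9.2%. CCGGAAG (ETS) was in 3 and 0, against 26.7%, and ACTACAA (ZFP143) in 3 and 1, against 21.2%. CACGTG (E-box) was in 2 and 1, against 30.8%. GGCGGGAA (E2F) was in 1 somatic window, Stag1, and 1 germline window, Ctcfl, against 10.2%, and TGCGCATGC (NRF1) was in none of the 10, against 4.07%. SP/KLF letters can overlap E2F letters, and windows of genes with more start sites are longer.

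Beyond the promoters, shared distal regions were peaks of both replicates that overlapped, lay over 2000 bp from every annotated start site and fell in the gene body or within 20 kb of it. Somatic loci held 6 in all and germline loci 5. Per length this was 6.50 per Mb in the somatic loci and 16.2 per Mb in the germline loci, against a genome-wide mean of 11.17 per Mb over all coding loci. At least 1 such region was present at 3 somatic and 2 germline members, against 46.7% of coding genes. Ctcfl, with a closed promoter, had 4, and Rad21, Smc1a and Nipbl, with open ones, had 0. With the longer lists Ctcfl had 4 and each of these 3 genes had 1, and in replicate 2 alone Ctcfl had 4 and Rad21, Smc1a and Nipbl had 2, 1 and 2.

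The sequences of the 4 distal CTCF cores with a footprint in both replicates are given with 20 bp on both sides, along the strand of the core, with the core in capitals.
Ctcf, 14.0 kb upstream, chr8:105622546-105622597, plus strand: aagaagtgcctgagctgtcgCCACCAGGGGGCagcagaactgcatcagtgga
Nipbl, 62.1 kb downstream of the start site, chr15:8382372-8382423, plus strand: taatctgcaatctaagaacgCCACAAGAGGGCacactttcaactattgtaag
Ctcfl, 29.9 kb downstream of the start site, chr2:173089638-173089689, minus strand: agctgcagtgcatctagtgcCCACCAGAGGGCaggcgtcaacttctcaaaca
Smc1b, 19.6 kb upstream, chr15:85151497-85151548, plus strand: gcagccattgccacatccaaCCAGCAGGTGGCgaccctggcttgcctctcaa

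The region around the core 14.0 kb upstream of Ctcf, chr8:105622445-105622680, had heights of 3.67 and 2.06. It stood at percentiles 98.5 and 96.3 of the 23895 shared distal regions. It was thus about as high as the Ctcf promoter itself, at 3.89 and 2.05, in both libraries. The annotation places it in an intron of Agrp, a gene on the opposite strand whose transcripts extend across it. A neighbouring region 12 kb upstream of Ctcf had heights of 1.33 and 1.62 and no CTCF core.

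Smc3 had 1 shared distal region, 48.5 kb downstream of its start site and past the gene end, with heights of 1.597 and 0.939. The 3 regions of Stag1 lay in its introns, 4.71, 42.5 and 273.9 kb downstream of the main start site. Their heights were between 0.635 and 1.11, in the range of ordinary distal regions, whose medians were 0.894 and 0.817. Coding genes of like locus length had a median of 3.

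At Ctcfl, whose promoter was closed, the 4 shared distal regions lay 19.3 kb upstream and 11.95, 29.9 and 38.4 kb downstream of the start site. Of coding genes with like locus length, 3.74% had as many. The region with the CTCF core printed above had heights of 1.92 and 0.999, at percentiles 89.2 and 66.1 of shared distal regions. The others had heights of 0.885 to 1.24 in replicate 1 and 0.824 to 0.959 in replicate 2. The one 11.95 kb downstream lay in an intron of Ctcfl, and the other 3 lay outside coding genes. The Smc1b region 19.6 kb upstream, inside the lincRNA gene Gm19277, had heights of 1.63 and 0.662. Rad21l and Stag3 had no shared distal region, although Rad21l had 1 with the longer lists.

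**Figure D4:**
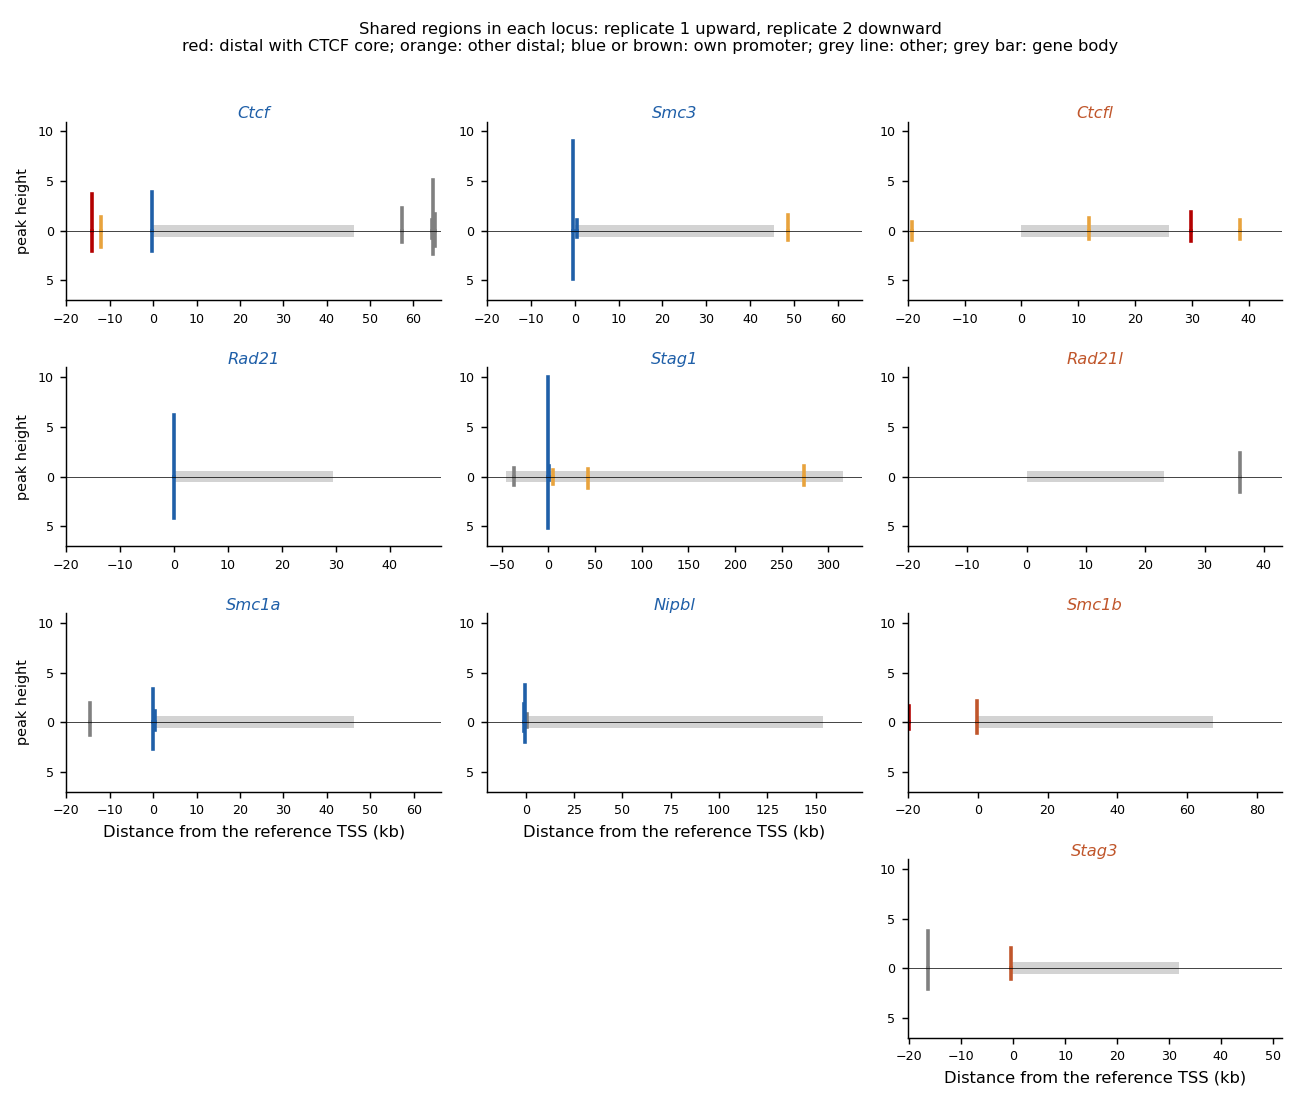
Regions shared by both replicates in the gene body (grey bar) and 20 kb on both sides of each member, by distance from the start site in kb, with heights (deposited signal) of replicate 1 upward and replicate 2 downward. The 6 somatic loci fill the left and middle columns and the 4 germline loci the right column. Red lines are distal regions with a CTCF core, orange lines other distal regions, blue or brown lines the gene's own promoter, and grey lines other promoters or proximal peaks. The red line upstream of Ctcf reaches 3.67, and Ctcfl has 4 distal regions and no promoter line.

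Of the 54 CTCF core matches in the somatic loci, 5 were touched by a footprint in both replicates, the Rad21 one by 1 base, and of the 29 in the germline loci, 2. The share over all coding loci was 4.9%. Of the 6 somatic distal regions 1 held a core, and of the 5 germline ones 2, against 18.9% of shared distal regions in the genome. Those 3 cores were touched by a footprint in both replicates, as were 85.8% of the cores in shared distal regions. The widest footprint at the core was 33 and 36 bp upstream of Ctcf, 48 and 46 bp at Ctcfl, and 27 and 43 bp at Smc1b. The Nipbl core lay in a peak of replicate 2 only, with a height of 0.567, and in the longer list of replicate 1 with 0.363, so it is not counted as shared. The widest footprint at that core was 29 bp in replicate 1 and 16 bp in replicate 2.

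Other genes of the same machinery and of meiosis were read in the same way. Of 14 further cohesin subunits and regulators 13 were accessible, with median heights of 5.32 and 2.75 among the accessible ones. The exception was Rec8, the meiotic kleisin gene, which had peaks in the longer lists only, at 0.514 and 0.351. All 10 condensin and SMC5/6 genes, which encode the related SMC complexes, were accessible, with medians of 4.43 and 2.46. All 7 genes of factors that bind with CTCF were accessible, with medians of 7.84 and 5.08. The share over all coding genes was 56.2%. Median CpG observed over expected of these lists was 0.841 to 0.904, in bins with 90.2% to 92.4% accessible. Such counts are thus near those of genes of like CpG content.

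Of 18 genes of the meiotic chromosome axis and of recombination, 3 were accessible, against 56.2% of all coding genes. The median CpG observed over expected of this list was 0.651, in a bin with 78.3% accessible. Mei4, needed for meiotic DNA breaks, had heights of 2.23 and 1.34, and Msh5, a crossover factor, had 4.86 and 2.69. Prdm9, which places the breaks, had 10.7 and 7.00, higher than any of the 10 members in both libraries. With the longer lists 7 of the 18 had a peak in both replicates, against 61% of coding genes. All 8 genes of PRC1.6, a repressor complex known to act on germline genes, were accessible, with medians of 4.00 and 1.80. Their median CpG observed over expected was 0.864, in a bin with 90.2% accessible.

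**Figure D5:**
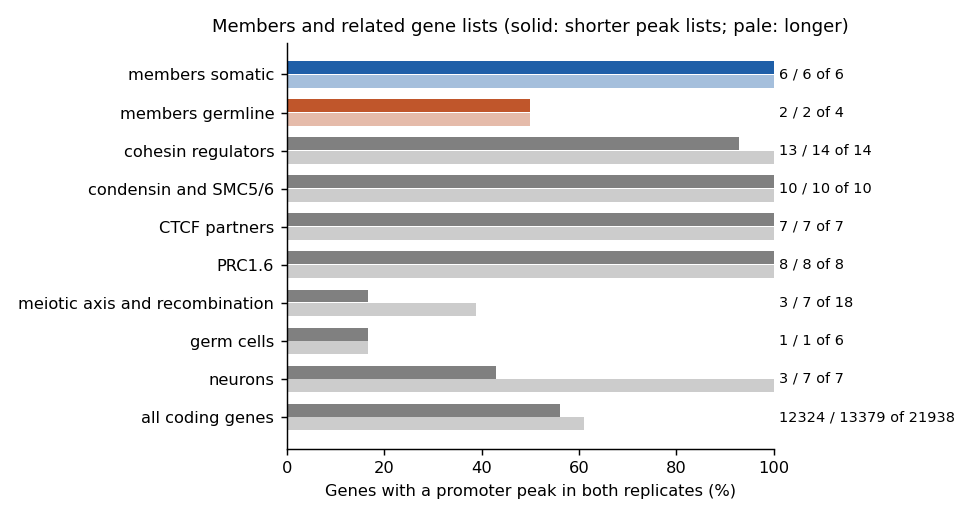
Share of genes with a promoter peak in both replicates (percent) in each gene list, with solid bars for the shorter and pale bars for the longer peak lists, and the 2 counts over the list size at the right. Somatic members stand at the top with 6 of 6, followed by germline members with 2 of 4, and the meiotic list has 3 of 18, or 7 with the longer lists.

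The tissue label was checked on markers. Peaks in both replicates were found at 3 of 7 neuronal genes (Snap25, Syt1 and Camk2a), and at 7 of 7 with the longer lists. The shares over all coding genes were 56.2% and 61%. Gad1, Gad2, Slc17a7 and Rbfox3 had a shorter-list peak in replicate 1 only. In replicate 2 their peaks were in the longer list alone, Rbfox3 at 0.817, above the median height of 0.689 of the shorter list. Astrocyte genes gave 3 of 4, all but the water channel gene Aqp4, which had peaks in the longer lists at 0.289 and 0.196. Oligodendrocyte genes gave 2 of 4. Microglia genes gave 1 of 4, Aif1, with heights of 0.993 and 0.763. Of 6 germ cell genes only Dazl was accessible, with heights of 1.90 and 1.16, and Ddx4, Mael, Stra8 and Tex101 had no promoter peak in either list. The shorter lists held 63928 peaks in replicate 1 and 76440 in replicate 2, and the footprint lists 280338 and 245020 footprints. Median peak heights were 0.915 and 0.689, and the sequencing depth of the libraries is unknown.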

How the data were processed

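Peaks, footprints and false discovery rates of 2 DNase-seq libraries were used as deposited on mm10. Peak height is a signal that the authors deposited per replicate. The sources used here do not give its scaling, the aligner, the callers or their settings. Deposited FDR tracks list q-values under 0.05. The deposited footprint lists hold positions and, in every row, the constant 0.01, a score that was not used. Each replicate has 2 peak lists that the deposited notes do not tell apart, and the shorter was used, with overlapping peaks joined.

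Genes came from GENCODE M21 and sequence from the RefSeq copy of GRCm38.p6. Overlaps, letter matches and CpG content were computed with Python 3.11.15, pandas 2.3.3 and pysam 0.24.0, and the steps were tested on simulated data. A shared region is an overlap of 1 bp or more between the replicates, and CpG and locus length were divided into 20 bins. Percentiles are over accessible coding genes. Members and gene lists were chosen with earlier results of these data known. All members are named, as are genes that go against most of their list. Windows, lists, distances and replicates were varied. Depth is unknown, so no interval is given.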

Additional observations from a re-analysis of the deposited data

How the results depend on the processing

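The counts of 6 accessible somatic and 2 accessible germline members held under all alternatives tried: the longer lists, windows of 250, 1000 and 2000 bp, coding transcripts alone, stronger peaks alone, peak centres, either replicate alone and, added after seeing the data, the longer lists with 2000 bp. Of 66 alternatives for the class values 57 stayed within 1.5 times (counts) or the spread between replicates (heights) and 9 moved. For heights this rule could not show stability. Leaving out 1 replicate could hardly exceed the spread between the 2, and a wider window cannot lower the tallest peak. The germline median height of 1.51 became 1.09 without replicate 1 and 2.08 without replicate 2, and both counted as held. Heights divided by the list median are on another scale than the limit. Shared distal regions moved most. The 6 of the somatic loci became 3 with the gene body alone and ranged between 6 and 12 with 1 replicate left out. The 5 of the germline loci became 3 when over 5000 bp from a start site, 1 with the gene body alone and 8 with 50 kb on both sides, and ranged between 5 and 9 with 1 replicate left out. Replicate 2 alone gave the higher values, 12 and 9. Footprints at somatic promoters, 54.5 as the mean of both replicates, became 30.5 when present in both, and those at germline promoters, 9.5, became 6. With a looser CTCF core, which leaves a further base free, germline promoters with a match became 2 instead of 0 of 4 and somatic ones 5 instead of 4 of 6, against 40% of coding promoters. Of 154 alternatives for single genes 133 held by the same rule and 21 moved. No paired analysis was possible because the series has 1 group. Unknown depth, 2 animals and 1 tissue limit every value: a missing peak means that none was called. Peaks between head-to-head genes belong to both.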

Other observations

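Most CTCF cores lay outside peaks of both replicates: 3 of 54 in the somatic loci and 2 of 29 in the germline loci lay inside. The promoter core of Rad21 lay in a peak of replicate 1 alone, and that of Smc3 in a peak of replicate 2 alone. Upstream of Rad21l, at 14.0 kb, a core was touched by a footprint in replicate 1 and lay in a peak of its longer list with a height of 0.600, and replicate 2 had neither. Of the 5 members without a shared distal region, 3 had the promoter of another gene in their locus as a shared peak: the Smc1a locus held the promoter of Hsd17b10, a mitochondrial dehydrogenase gene, at 1.99 and 1.30, the Rad21l locus that of Snph, which encodes the axonal protein syntaphilin, at 2.34 and 1.54, and the Stag3 locus that of BC037034 at 3.77 and 2.07.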
